A study of Mus musculus with 27 samples.

Results

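Imprinted genes are expressed mainly from the copy inherited from a single parent, and 47 mouse genes of this kind, or lying beside imprinted genes in their domains, were read across 7 groups of gastric organoids. They were chosen by symbol, and each of the 47 had a row among the 56691 genes of the deposited table. The organoids are cultures of stomach epithelium grown in Matrigel from sorted cells of the corpus of 8-week-old mice carrying Mist1Cre/ERT2 and RFPLSL, a red reporter that Cre switches on in cells with Mist1 (the transcription factor Bhlha15). Each group has 3 libraries, 21 in all. One group is labelled Mist1- at passage 5; 3 are labelled Mist1+ at passages 5, 10 and 15 without a knockout label and are called wild type here; and 3 are labelled Gpx4 knockout at the same passages, from mice that also carried Gpx4F/F, a floxed gene for the enzyme that reduces lipid peroxides. Mist1Cre/ERT2 and RFPLSL are thus shared by the knockout and the wild-type groups, so knockout comparisons differ by the floxed Gpx4 alleles, and the labels do not say from how many animals each line came or whether the 3 libraries of a group were separate cultures. P-values therefore measure the spread between libraries, which may be technical.

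Imprinting is set by DNA methylation that differs between eggs and sperm and is kept through later cell divisions at control regions, which govern clusters of neighbouring genes. Many imprinted genes regulate fetal growth, placenta and brain, and many fall silent after birth outside a few tissues. Loss or gain of methylation in long culture is a known way for their dosage to change. The counts do not separate the parental copies, so every value below is the summed output of both, and imprinting itself was not measured.

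The libraries held 13805585 to 19608956 counts. Levels below are CPM, each count divided by the library's scaled total, unless read counts or FPKM, which also divides by exonic length, are named. A gene rose, fell or changed where its adjusted p in edgeR's quasi-likelihood test over all 15115 tested genes was under 0.05, and log2 fold changes are given ± SE. Gpx4 itself was only modestly lower under the knockout label, with 98.2 to 101 CPM against 124 to 134 at passage 5 (log2 -0.38 ± 0.14, adjusted p = 0.0362). At passage 15 it read 83.1 to 87.8 against 104 to 195 (log2 -0.72 ± 0.14, adjusted p = 0.000215); the 195 is wild-type replicate 1, and against replicate 2 alone, at 104 CPM, the difference was log2 -0.28. At passage 10 the difference was not called in the 21-library fit (log2 -0.30 ± 0.14, adjusted p = 0.0940). Gene-level counts include exons outside any deleted part, so they check the label only weakly. Bhlha15 was lower in wild-type passage 5 (5.02 to 6.21 CPM) than in the libraries labelled Mist1- (8.61 to 12.8; log2 -0.91 ± 0.14, adjusted p = 1.89e-05), the reverse of the names of those groups. Of 14 gastric epithelial markers, 11 had at least 10 counts in every library of every group. Wild-type passage 15 stood apart: its 3 libraries varied by 21.1% (biological coefficient of variation) against 1.89% to 3.07% in the other 6 groups. In its replicate 1 the shortest genes (up to 2500 exonic bases) exceeded the longest (from 6591) by a median log2 of 0.97 relative to wild-type passage 10; this gap was 0.41 in replicate 3, 0.02 in replicate 2 and -0.055 to 0.063 in the other 18 libraries. Member results that rest on that group are therefore also given with its replicate 2 alone where this ended a call or moved a value by over 1.5 times, and for some others. The group is then 1 library, assumed to vary like the other groups, so an SE or p of such a value holds no spread of its own group and supports no call; they are printed only where a call was lost.

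The sharpest contrast was among adjacent intronless genes of the Prader-Willi region on chromosome 7, which are transcribed from the paternal copy: Ndn, Magel2, Mkrn3 and Peg12. Their promoters are shown because 1 of these neighbours was on in a single group while Magel2 and Peg12 had at most 1 count in any library. Each window holds 300 bases around the RefSeq start (GRCm38.p6), most of them upstream, 5′ to 3′ on the gene's strand, with every CG, the site of DNA methylation, in capitals: Ndn at chr7:62348027-62348326 (plus strand), Magel2 at chr7:62376729-62377028 (plus), Mkrn3 at chr7:62420104-62420403 (minus) and Peg12 at chr7:62464461-62464760 (minus).
Ndn: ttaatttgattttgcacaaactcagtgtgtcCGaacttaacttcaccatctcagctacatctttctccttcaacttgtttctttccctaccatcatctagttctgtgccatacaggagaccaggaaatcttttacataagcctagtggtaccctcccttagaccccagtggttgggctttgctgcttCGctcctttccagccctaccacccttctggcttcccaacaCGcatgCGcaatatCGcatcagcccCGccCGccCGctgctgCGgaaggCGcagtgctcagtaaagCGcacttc
Magel2: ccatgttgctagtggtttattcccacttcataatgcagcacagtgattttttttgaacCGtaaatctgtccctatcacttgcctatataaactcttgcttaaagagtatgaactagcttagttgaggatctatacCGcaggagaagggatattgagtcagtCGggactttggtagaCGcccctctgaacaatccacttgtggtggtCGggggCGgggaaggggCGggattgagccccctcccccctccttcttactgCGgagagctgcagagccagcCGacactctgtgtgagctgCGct
Mkrn3: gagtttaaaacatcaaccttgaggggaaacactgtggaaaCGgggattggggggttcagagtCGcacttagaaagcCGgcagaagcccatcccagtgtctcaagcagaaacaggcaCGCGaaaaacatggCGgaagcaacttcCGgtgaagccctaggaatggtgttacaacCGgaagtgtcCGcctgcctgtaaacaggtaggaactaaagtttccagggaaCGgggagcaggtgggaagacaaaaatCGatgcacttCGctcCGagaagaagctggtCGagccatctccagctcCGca
Peg12: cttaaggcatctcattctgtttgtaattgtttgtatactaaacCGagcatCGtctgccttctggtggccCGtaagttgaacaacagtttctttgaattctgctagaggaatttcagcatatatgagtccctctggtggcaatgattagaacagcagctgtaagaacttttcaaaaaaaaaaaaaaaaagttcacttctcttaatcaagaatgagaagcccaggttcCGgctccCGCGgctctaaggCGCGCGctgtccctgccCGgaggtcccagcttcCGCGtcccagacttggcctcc
The windows hold 11, 10, 15 and 12 CG in that order, against a median of 7 over the table's 32851 promoters and 15.5 over the 58 promoters found for 38 of the members. The hexamer TGCCGC, recognised by the imprint-keeping zinc finger protein ZFP57 when methylated, was searched on both strands and is in none of these 4 windows; it is in 14 of the 58 member promoters and in 11.6% of all promoters. Such matches describe letters only. The Ndn window lies inside the Ndn span of GENCODE M21 (62346569 to 62350262), whose start differs from RefSeq's, so it is not upstream of that span.

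Of the 47 members, 30 were detected, meaning at least 10 counts in every library of at least 1 group, and 25 had at least 10 counts in all 21 libraries. A count filter let 31 into the tests, Ndn and Mkrn3 only through their counts in wild-type passage 15. Their calls against that group are included in the counts of members below and are no support. At 0 counts in every library were 6 members: Igf2, the fetal growth factor; Peg12, a FRAT family gene; Usp29, a ubiquitin protease of the Peg3 domain; Asb4, a SOCS box gene; Klf14, a Krüppel-like factor; and Sfmbt2, a Polycomb-related gene of the placenta. Over all 21 libraries a count of 0 allows up to 0.00868 CPM, a limit that covers counting error only. For Igf2, which shares 3596 exonic bases with Gm49394, it covers only reads that were assigned to Igf2. Another 10 stayed below the filter, from Magel2 with 1 count in all, Dlk1 with 2 and Zim1 with 4, through Rian (11), Nap1l5 (25), Meg3 (28), Rasgrf1 (30), Peg10 (53) and Grb10 (55), to Sgce (80).

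Per exonic length, Cd81 was the most abundant member, with group means of 52.4 to 130 FPKM; it encodes a tetraspanin of the plasma membrane and lies at the edge of the Kcnq1ot1 domain. Nap1l4, a nucleosome assembly protein, followed at 40.6 to 46.7 FPKM, and Igf2r, the receptor that takes up IGF2 and sorts lysosomal enzymes, at 31.7 to 41.7 FPKM. H13, Tssc4 and Copg2 came next, with means over groups of 16.7, 12.0 and 12.0 FPKM. These leading members are broadly expressed genes. At the low end of the tested members were Ppp1r9a (0.11 FPKM), Kcnq1ot1 (0.153), H19 (0.154), Mkrn3 (0.154) and Mest (0.287). Group means of Copg2 ran only from 11.2 to 12.9 FPKM, while those of Peg3 ran from 0.307 to 1.45.

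**Figure D1:**
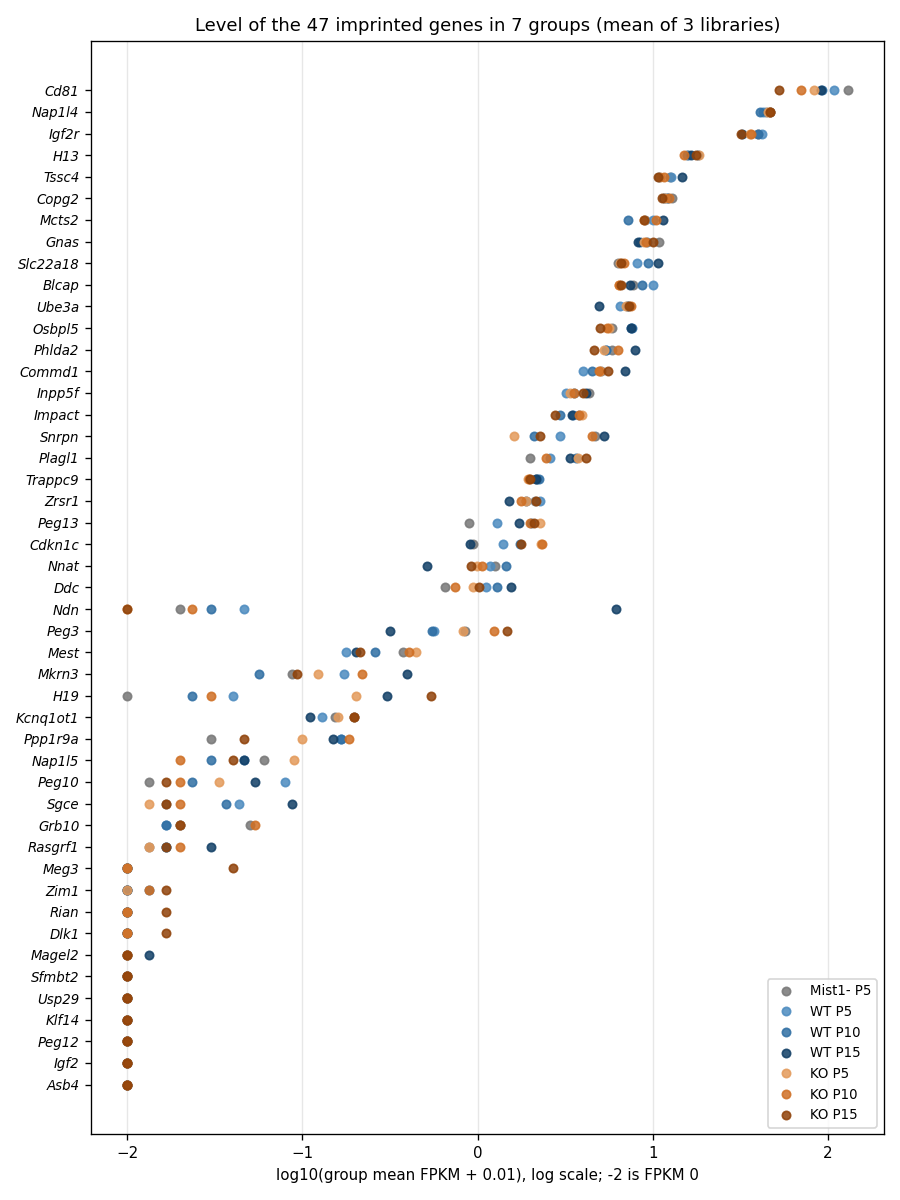
Group mean FPKM (3 libraries each) of all 47 members on a log10 axis, with 0.01 added so that -2 marks FPKM 0, ordered by the mean over the 7 groups. Cd81 spreads from 52.4 to 130 FPKM, and Ndn is at 6.17 FPKM in wild-type passage 15 only.

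No member switched on or off over passages under the rule used, which called a group off at up to 3 counts over its 3 libraries and on at 10 or more counts in each (0 of 47 members; 0.201% of all genes). Between any groups, 1 member switched, Ndn, against 0.42% of all genes. With off raised to 10 counts over a group, Ndn and Mkrn3 switched over passages, and with on lowered to 5 counts H19 did, so the count of 0 rests on the thresholds. Asking for 10 counts in at least 2 of 3 libraries, a variant added after the data were seen, gave H19 and Meg3.

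Ndn encodes necdin, a MAGE family protein that restrains proliferation and marks differentiated neurons (chromosome 7, 62346569 to 62350262, plus strand, GENCODE M21 on GRCm38). Its counts were 365, 303 and 376 in wild-type passage 15, which is 26.3, 17.9 and 23.1 CPM, and 0 to 3 in each of the other 18 libraries. The 3 libraries of wild-type passage 5 held 3, 2 and 1 counts and those of passage 10 held 0, 3 and 1, so a trace was present earlier. By counting error alone the passage 15 level was 161 times that of passage 5 (interval 73.6 to 439) and 282 times that of passage 10 (110 to 1038). Ndn passed the count filter only through wild-type passage 15, where it is high, so its p-values add no support and are not given. The fitted change from passage 5 to 15 was log2 7.27 ± 0.36. Against knockout passage 15, where all 3 libraries had 0 counts, Ndn was at least 378-fold higher. All 3 libraries of the group were high, and with replicate 2 alone the value was log2 6.95. The interaction term is uninformative for Ndn, because the knockout groups at passages 5 and 15 were both at 0.

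Ndn was not accompanied by its neighbours in the same measure. Magel2, a MAGE gene related to Ndn, had 1 count in 1 wild-type passage 15 library and 0 elsewhere, and Peg12 had 0 in all. Mkrn3, a makorin ubiquitin ligase and brake on puberty (chromosome 7, 62417593 to 62420139, minus strand), had 7, 5 and 7 counts at wild-type passage 5, 1, 1 and 5 at passage 10 and 16, 14 and 15 at passage 15. In the knockout it had 5, 2 and 8, then 4, 1 and 23, then 6, 2 and 2, and in Mist1- organoids 3, 4 and 3. Mkrn3 also passed the count filter only through wild-type passage 15, so its p-value against that group in the knockout is no support and is not given. It read lower in knockout than in wild type at passage 15 (log2 -2.25 ± 0.67). Its rise from passage 5 to 15 in wild type was not called (log2 1.12 ± 0.60, adjusted p = 0.124), and 1 knockout passage 10 library stood out with 23 counts. In the same wild-type passage 15 libraries the 10 fibroblast markers summed to 5 to 13 counts, the 6 neuron, glia and neuroendocrine markers to 16 to 21 (9 to 31 in the other groups), and Neurod1, Dcn and Lum were at 0. Cdx2, the intestinal and trophoblast homeobox gene, was at 524, 469 and 498 counts there against 0 to 23 in the other 18 libraries; whether it has a part in the Ndn level was not tested.

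Snrpn, the spliceosomal SmN protein gene of the same region (chromosome 7, 59982495 to 60140219, minus strand), changed differently in the genotypes between passages 5 and 10. Wild-type libraries had 6.99, 5.29 and 7.47 CPM at passage 5, 4.44, 4.50 and 5.02 at passage 10 and 13.0, 9.84 and 10.5 at passage 15. Knockout libraries had 3.05, 4.09 and 3.02 CPM at passage 5, 9.69, 9.53 and 9.35 at passage 10 and 4.49, 4.87 and 5.00 at passage 15, and the Mist1- libraries 9.82, 10.7 and 9.58. Snrpn rose in the knockout from passage 5 to 10 (log2 1.48 ± 0.14, adjusted p = 4.04e-07), with no overlap between the groups. The wild-type groups did not overlap either, but their difference was not called (log2 -0.50 ± 0.15, adjusted p = 0.0545). This difference between genotypes was itself called (interaction log2 1.98 ± 0.21, adjusted p = 1.43e-06). Knockout was below wild type at passage 5 (log2 -0.95 ± 0.15, adjusted p = 4.97e-05), above it at passage 10 (log2 1.03 ± 0.14, adjusted p = 6.31e-06) and below it again at passage 15 (log2 -1.21 ± 0.14, adjusted p = 4.06e-07), so Snrpn gave no steady drift with passage. With replicate 2 of wild-type passage 15 alone the last value was log2 -1.04. In wild type Snrpn rose from passage 5 to 15 (log2 0.75 ± 0.13, adjusted p = 0.000109; with replicate 2 alone log2 0.58). Snrpn shares 589 exonic bases with Gm38393 and 216 with Snurf, so its reads cannot be fully assigned among them. The knockout rise from passage 5 to 15 (log2 0.49 ± 0.16, adjusted p = 0.0389) lost its call when any of 5 of the 6 libraries was left out, and with no low-count filter.

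Ube3a, the ubiquitin ligase of Angelman syndrome, is expressed from both copies outside neurons. It ranged from 139, 139 and 139 CPM in wild-type passage 5 to 152, 152 and 153 in passage 10, and 66.8, 130.0 and 99.5 in passage 15, where replicate 1 was lowest. In knockout organoids it stayed between 139.6 and 155 CPM in all 9 libraries. Its fall in wild type from passage 5 to 15 (log2 -0.49 ± 0.13, adjusted p = 0.00357) was log2 -0.092 ± 0.046, adjusted p = 0.102 with replicate 2 alone. Its excess in knockout at passage 15 (log2 0.58 ± 0.13, adjusted p = 0.00102) was log2 0.19 there. Ube3a has 20626 exonic bases and belongs to the long genes that read low in replicate 1.

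**Figure D2:**
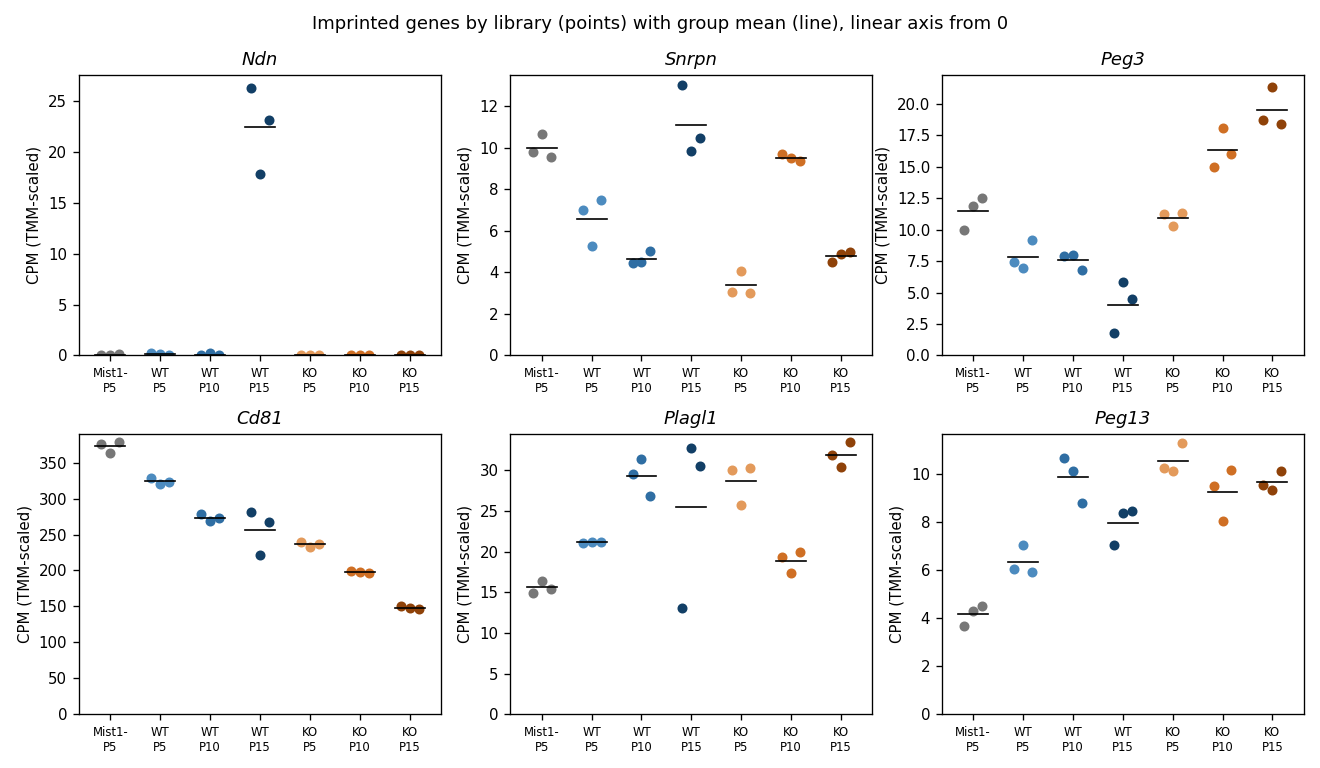
CPM of 6 members in every library (points, replicates 1 to 3 from left to right) with the group mean (line), on linear axes from 0. Ndn is at 17.9 to 26.3 in wild-type passage 15 and at most 0.204 elsewhere, Peg3 climbs with passage in the knockout, and Cd81 steps down over the knockout passages.

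The H19 and Igf2 genes share enhancers, and in most tissues H19, a non-coding RNA that restrains growth, is made from the maternal copy and Igf2 from the paternal one (H19 at chromosome 7, 142575529 to 142578143, minus strand). Igf2 had 0 counts in all 21 libraries. It shares 3596 exonic bases, 62.8% of its own, with the protein-coding gene Gm49394 on the same strand. How reads there were assigned is not given in the sources used here, so the 0 does not show that Igf2 was silent. H19 had 3, 0 and 1 counts at wild-type passage 5, 0, 0 and 2 at passage 10 and 9, 15 and 12 at passage 15. The knockout held 13, 7 and 7 at passage 5, 0, 2 and 0 at passage 10 and 1, 44 and 26 at passage 15, and Mist1- organoids held 0 in each library. H19 rose in wild type from passage 5 to 15 (log2 2.95 ± 1.08, adjusted p = 0.0299), a change of 8.31 times with a counting interval of 2.98 to 32.1; without wild-type passage 15 replicate 3 or passage 5 replicate 2 or 3 it lost its call. In knockout passage 15 the values ran from 1 to 44, so 1 library of this group was as low as the passage 10 libraries and the other two were the highest of all 21.

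The Dlk1 and Meg3 domain on chromosome 12 showed the same division of knockout passage 15. Meg3, a maternal non-coding RNA (109541001 to 109571726, plus strand), had 0, 16 and 12 counts in the 3 libraries of that group and 0 in the other 18. Rian, the snoRNA host transcript downstream, had 0, 5 and 6, and Dlk1, the paternal Notch-family ligand, 0, 1 and 1, again with 0 elsewhere. None of the 3 was abundant enough to be tested. Replicates 2 and 3, which carried these transcripts and the highest H19 counts, also carried fibroblast collagens. Col1a1 was at 0, 17 and 6 counts, Col1a2 at 0, 16 and 8 and Col3a1 at 1, 9 and 13. The other fibroblast markers did not all follow. Vim was at 20, 28 and 42 counts, Acta2 at 5, 3 and 1, Thy1 at 0, 0 and 2 and Pdgfra at 0, 0 and 1. Pdgfrb was at 0 in all 3. The 10 fibroblast markers summed to 1.58 to 4.23 CPM in knockout passage 15, with Dcn and Lum at 0, against at most 2.25 CPM in any library of the other groups. Their part in the Meg3, Rian and H19 counts was not tested.

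**Figure D3:**
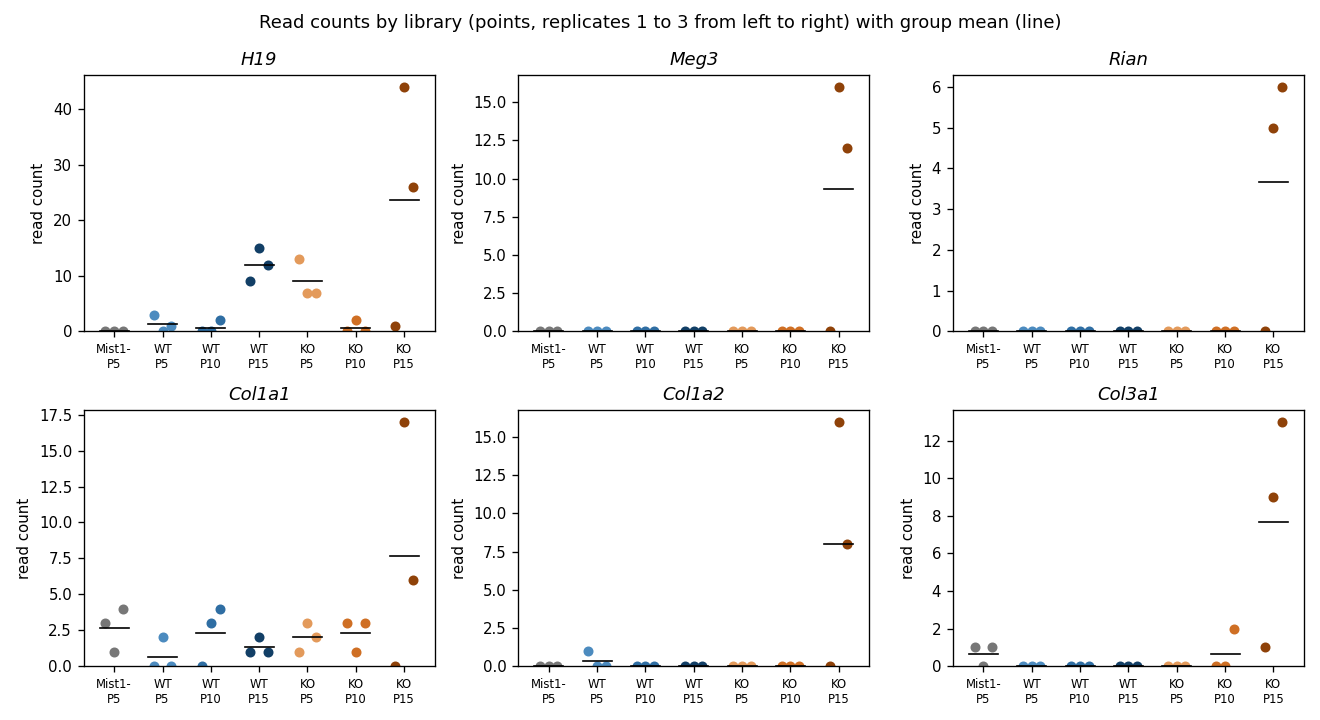
Read counts of H19, Meg3 and Rian (top) and of the collagen genes Col1a1, Col1a2 and Col3a1 (bottom) in every library (points, replicates 1 to 3 from left to right; line, group mean). Meg3 and Rian are above 0 only in replicates 2 and 3 of knockout passage 15, the libraries with the highest Col1a1, Col1a2 and Col3a1 counts. The other fibroblast markers, which did not all follow the collagens, are not drawn.

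Peg3, a paternally expressed zinc finger gene with roles in growth and maternal behaviour (chromosome 7, 6703892 to 6730431, minus strand), rose with passage in the knockout. Knockout libraries had 11.2, 10.3 and 11.3 CPM at passage 5, 15.0, 18.1 and 16.0 at passage 10 and 18.8, 21.3 and 18.4 at passage 15, so that the passages 5 and 15 groups did not overlap. Wild-type libraries had 7.39, 6.98 and 9.19 CPM at passage 5, 7.91, 8.02 and 6.76 at passage 10 and 1.80, 5.83 and 4.49 at passage 15, and Mist1- libraries 9.99, 11.9 and 12.5. Peg3 rose in the knockout from passage 5 to 15 (log2 0.83 ± 0.18, adjusted p = 0.00235) and fell in wild type (log2 -0.93 ± 0.23, adjusted p = 0.00198). The difference between these changes was called (interaction log2 1.76 ± 0.29, adjusted p = 6.82e-05). Knockout exceeded wild type at passage 10 (log2 1.11 ± 0.19, adjusted p = 9.52e-05) and at passage 15 (log2 2.24 ± 0.20, adjusted p = 1.84e-08). Peg3 has 13616 exonic bases and read lowest, at 1.80 CPM, in wild-type passage 15 replicate 1; with replicate 2 alone the fall in wild type was log2 -0.42 ± 0.19, adjusted p = 0.0593, the knockout excess log2 1.74 and the interaction log2 1.26. Its neighbours gave little signal: Usp29 was at 0 in all libraries and Zim1, a maternal zinc finger gene, at 1 count in each of 4.

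In the Peg10 and Sgce domain on chromosome 6, only Ppp1r9a was tested. Ppp1r9a, encoding the actin-binding scaffold neurabin (4902917 to 5165661, plus strand), read 0.177, 0.623 and 0.177 in Mist1- organoids and 2.51, 2.47 and 2.13 CPM at passage 5, 1.68, 3.26 and 2.16 at passage 10 and 1.44, 2.95 and 1.54 at passage 15 in wild type. It was the member with the largest called rise in Mist1+ over Mist1- organoids (log2 2.82 ± 0.46, adjusted p = 4.84e-05). Knockout libraries had 0.886, 2.04 and 0.966 CPM at passage 5, 2.37, 2.70 and 2.31 at passage 10 and 0.728, 0.580 and 0.345 at passage 15, below wild type at passage 15 (log2 -1.85 ± 0.43, adjusted p = 0.00138; with replicate 2 alone log2 -2.41). Sgce, epsilon-sarcoglycan, was a trace with 2, 7 and 8 counts at wild-type passage 5, 8, 4 and 5 at passage 10 and 10, 8 and 19 at passage 15. In the 9 knockout libraries Sgce had 0 to 2 counts, and in the 3 Mist1- libraries 0 or 1. At passage 15 wild type exceeded knockout by 13.4 times (counting interval 4.24 to 67.9). Peg10, a retrotransposon-derived gene needed by the placenta and sharing the Sgce promoter region, had 7, 6 and 8 counts at wild-type passage 5 and 0 to 4 in the other passage 5 libraries.

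Mest, a paternal gene for a membrane hydrolase-like protein (chromosome 6, 30723547 to 30748465, plus strand), was sparse. Its counts were 18, 6 and 6 at wild-type passage 5, 27, 10 and 15 at passage 10 and 5, 14 and 17 at passage 15. Knockout libraries had 33, 33 and 25 at passage 5, 28, 23 and 21 at passage 10 and 14, 6 and 20 at passage 15, and Mist1- libraries 19, 31 and 25. It was higher in knockout than in wild type at passage 5 (log2 1.29 ± 0.44, adjusted p = 0.0307), a call that was lost when any of 4 of the 6 libraries was left out. Mest shares 912 exonic bases with Copg2 on the opposite strand, and the strand setting of the counting is not given in the sources used here, so reads of the much more abundant Copg2, a coatomer subunit (53.6 to 69.6 CPM), cannot be told apart there. Copg2 was called in none of the comparisons of the 21-library fit; without the wild-type passage 15 libraries it was lower in knockout at passage 5 (log2 -0.14 ± 0.049, adjusted p = 0.00849).

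The Kcnq1ot1 domain on chromosome 7 holds a paternal antisense RNA, Kcnq1ot1, which silences neighbours on that copy, and maternally expressed genes around it. Kcnq1ot1 (143203458 to 143296549, minus strand, inside Kcnq1) had 12.6, 11.8 and 10.4 CPM at passage 5, 16.0, 18.2 and 19.3 at passage 10 and 7.55, 11.1 and 9.11 at passage 15 in wild type. In the knockout it had 14.4, 13.5 and 12.7 CPM at passage 5, 16.4, 16.9 and 18.2 at passage 10 and 16.3, 17.7 and 17.8 at passage 15. It rose in wild type from passage 5 to 10 (log2 0.62 ± 0.12, adjusted p = 0.00304) and was higher in knockout at passage 15 (log2 0.89 ± 0.13, adjusted p = 8.6e-06; with replicate 2 alone log2 0.63). Without strand, unspliced RNA of Kcnq1 cannot be told apart from it.

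Of its maternal targets, Cdkn1c encodes the cell-cycle inhibitor p57 (143458339 to 143461050, minus strand). Knockout libraries had 3.99, 4.51 and 5.25 CPM at passage 5, 5.20, 3.84 and 4.95 at passage 10 and 4.13, 2.90 and 3.56 at passage 15 of Cdkn1c. Wild-type libraries had 2.37, 3.81 and 2.67 CPM at passage 5, 2.64, 3.13 and 5.23 at passage 10 and 2.45, 0.943 and 2.03 at passage 15. At passage 15 the knockout exceeded them (log2 0.99 ± 0.29, adjusted p = 0.00923), and the value was log2 1.89 with replicate 2 alone. This Cdkn1c call was lost with only the groups compared. Phlda2, a pleckstrin homology protein that limits placental growth, had 5.77, 7.13 and 6.10 CPM at passage 5, 6.41, 6.07 and 6.23 at passage 10 and 10.6, 7.19 and 8.25 at passage 15 in wild type. Its knockout libraries gave 5.93, 4.82 and 6.52 CPM at passage 5, 7.31, 6.11 and 7.53 at passage 10 and 4.85, 5.28 and 5.17 at passage 15. The knockout was lower at passage 15 (log2 -0.76 ± 0.14, adjusted p = 0.000232; with replicate 2 alone log2 -0.50). Its rise in wild type to passage 15 (log2 0.45 ± 0.14, adjusted p = 0.0127) became log2 0.19 ± 0.20, adjusted p = 0.488 with replicate 2 alone. Slc22a18, an organic cation transporter family member, read 14.5, 14.4 and 14.3 CPM at passage 5, 16.8, 17.8 and 15.1 at passage 10 and 22.7, 13.3 and 17.4 at passage 15 in wild type. The knockout libraries gave 12.7, 10.9 and 8.93 CPM at passage 5, 12.3, 11.0 and 10.8 at passage 10 and 11.2, 10.7 and 11.0 at passage 15 and were lower than wild type at passages 5 (log2 -0.41 ± 0.15, adjusted p = 0.0395), 10 (log2 -0.54 ± 0.14, adjusted p = 0.00574) and 15 (log2 -0.69 ± 0.14, adjusted p = 0.000589). The passage 15 difference in Slc22a18 was only log2 -0.27 with replicate 2 alone, and its call was lost. Its passage 5 call was lost without any 1 of the wild-type passage 5 libraries and without knockout passage 5 replicate 2 or 3. That call was also lost with library totals alone and with limma. Kcnq1ot1 and its maternal neighbours thus showed no shared direction: at passage 15, knockout against wild type, Kcnq1ot1 and Cdkn1c were higher and Phlda2 and Slc22a18 lower.

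The flanking genes of the domain included the steadiest decline. Cd81 (143052739 to 143067934, plus strand) had 376, 364 and 379 CPM in Mist1- organoids and 328, 321 and 323 CPM at passage 5, 278, 269 and 274 at passage 10 and 281, 221 and 267 at passage 15 in wild type. Knockout libraries had 239, 232 and 237 CPM at passage 5, 199.8, 198 and 196 at passage 10 and 151, 148 and 146 at passage 15, and the 3 knockout groups did not overlap each other. Knockout passage 5 overlapped wild-type passage 15, whose replicate 2 read 221 CPM, and no other wild-type group. Cd81 fell in the knockout to passage 10 (log2 -0.26 ± 0.062, adjusted p = 0.0112) and to passage 15 (log2 -0.67 ± 0.063, adjusted p = 9.4e-08). It was lower in knockout at passages 5 (log2 -0.45 ± 0.062, adjusted p = 8.07e-06), 10 (log2 -0.47 ± 0.063, adjusted p = 5.53e-06) and 15 (log2 -0.79 ± 0.063, adjusted p = 2.13e-09). In wild type it fell to passage 10 (log2 -0.24 ± 0.062, adjusted p = 0.0228). This call was lost when any 1 of the 6 libraries was left out and kept without the wild-type passage 15 libraries (log2 -0.24 ± 0.025, adjusted p = 3.94e-17). Wild-type Cd81 also fell to passage 15 (log2 -0.34 ± 0.062, adjusted p = 0.000145), and the value was log2 -0.55 with replicate 2 alone. Cd81 was called in all 8 pairwise comparisons of the 21-library fit. Osbpl5, a lipid transfer protein of the oxysterol-binding family (143688762 to 143756985, minus strand), had 37.9, 36.5 and 40.2 CPM at passage 5, 37.1, 40.0 and 38.1 at passage 10 and 34.8, 37.1 and 36.4 at passage 15 in wild type. It had 26.2, 28.5 and 26.0 CPM at passage 5, 23.0, 26.9 and 29.0 at passage 10 and 25.4, 25.4 and 21.0 at passage 15 in the knockout and 28.2, 27.7 and 29.6 in Mist1- organoids, and all 9 knockout libraries lay below all 9 wild-type ones. It was lower in knockout at passages 5 (log2 -0.50 ± 0.082, adjusted p = 6.55e-05), 10 (log2 -0.54 ± 0.082, adjusted p = 2.55e-05) and 15 (log2 -0.59 ± 0.083, adjusted p = 7.45e-06; with replicate 2 alone log2 -0.63). Tssc4, a factor of U5 snRNP assembly, was lower in knockout at passage 15 (log2 -0.45 ± 0.14, adjusted p = 0.0119), but with replicate 2 alone the difference was log2 0.026 ± 0.12, adjusted p = 0.896. At passage 5 its difference was not called in the 21-library fit (log2 -0.30 ± 0.14, adjusted p = 0.119) and was called lower without the wild-type passage 15 libraries (log2 -0.30 ± 0.080, adjusted p = 0.000786). Nap1l4 was higher in knockout at passage 10 (log2 0.13 ± 0.045, adjusted p = 0.0375) and was not called otherwise in the 21-library fit. This call was lost without wild-type passage 10 replicate 2 or 3 and without any 1 of the knockout passage 10 libraries.

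Several members are retrogenes or RNAs inside the introns of host genes. Zrsr1, a paternal splicing factor retrogene, lies within Commd1, a copper metabolism gene, on the opposite strand, and they share 412 exonic bases on chromosome 11. Zrsr1 had 11.1, 10.8 and 9.74 CPM at passage 5, 9.11, 8.35 and 8.55 at passage 10 and 6.55, 7.07 and 6.28 at passage 15 in wild type. The knockout gave 7.09, 9.59 and 8.09 CPM at passage 5, 7.89, 7.75 and 7.70 at passage 10 and 9.16, 8.52 and 10.9 at passage 15. It fell in wild type to passage 15 (log2 -0.67 ± 0.12, adjusted p = 0.000117; with replicate 2 alone log2 -0.57) and was higher in knockout there (log2 0.52 ± 0.12, adjusted p = 0.00136). At passage 5 it was lower in knockout (log2 -0.35 ± 0.12, adjusted p = 0.0252). The passage 5 call was lost without wild-type replicate 1 or 2 or knockout replicate 1 or 3, and with library totals alone or limma. Commd1 had 24.6, 23.0 and 26.3 CPM at passage 5, 30.1, 28.3 and 23.8 at passage 10 and 57.1, 29.6 and 35.4 at passage 15 in wild type, with replicate 1 of passage 15 highest of all. Knockout levels of Commd1 were 29.0, 30.5 and 27.3 CPM at passage 5, 26.8, 28.1 and 30.9 at passage 10 and 32.2, 32.4 and 32.1 at passage 15. Its rise in wild type to passage 15 (log2 0.72 ± 0.16, adjusted p = 0.000714) was log2 0.27 with replicate 2 alone.

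Nnat, encoding neuronatin, a small membrane proteolipid, sits in Blcap on chromosome 2 and is expressed from the paternal copy. Nnat had 2.04, 2.40 and 2.26 CPM at passage 5, 3.06, 2.48 and 2.69 at passage 10 and 0.360, 1.24 and 1.11 at passage 15 in wild type, with passage 15 below the earlier groups in all 3 libraries. Knockout levels were 2.44, 1.57 and 1.27 CPM at passage 5, 1.48, 1.49 and 2.69 at passage 10 and 1.46, 1.74 and 1.67 at passage 15. Its fall in wild type to passage 15 (log2 -1.26 ± 0.33, adjusted p = 0.00303) was log2 -0.84 ± 0.40, adjusted p = 0.0825 with replicate 2 alone. Blcap, the host gene, had 32.2, 33.3 and 30.2 CPM at passage 5, 27.3, 27.4 and 26.9 at passage 10 and 23.5, 19.6 and 22.9 at passage 15 in wild type. In the knockout it had 18.9, 19.4 and 19.3 CPM at passage 5, 18.7, 21.1 and 17.9 at passage 10 and 18.0, 20.1 and 20.9 at passage 15, below every wild-type passage 5 and 10 library. Mist1- organoids had 21.4, 26.1 and 22.8. Blcap was lower in knockout at passages 5 (log2 -0.73 ± 0.087, adjusted p = 1.34e-06) and 10 (log2 -0.50 ± 0.088, adjusted p = 0.000133), fell in wild type to passage 15 (log2 -0.54 ± 0.087, adjusted p = 3.73e-05), and was not called between genotypes there (log2 -0.16 ± 0.089, adjusted p = 0.144).

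Mcts2, a retrogene of a translation re-initiation factor, lies inside H13, the gene of signal peptide peptidase, on the same strand. It had 9.02, 10.2 and 9.26 CPM at passage 5, 7.01, 7.24 and 6.02 at passage 10 and 12.4, 8.78 and 9.73 at passage 15 in wild type. Knockout levels were 7.31, 8.44 and 8.27 CPM at passage 5, 10.8, 8.18 and 8.91 at passage 10 and 8.07, 8.29 and 7.59 at passage 15. Mcts2 fell in wild type from passage 5 to 10 (log2 -0.49 ± 0.13, adjusted p = 0.0294), was higher in knockout at passage 10 (log2 0.46 ± 0.13, adjusted p = 0.00805) and lower at passage 15 (log2 -0.36 ± 0.13, adjusted p = 0.0234). The last of these was log2 -0.14 ± 0.17, adjusted p = 0.591 with replicate 2 alone. The fall of Mcts2 in wild type lost its call without any 1 of the passage 5 libraries and without passage 10 replicate 1 or 3. Its passage 10 knockout difference lost its call without wild-type replicate 3 or knockout replicate 1. H13 was lower in knockout at passage 10 (log2 -0.34 ± 0.10, adjusted p = 0.0138) and called in no other comparison of the 21-library fit. Without wild-type passage 10 replicate 2 that H13 call was lost. Without the wild-type passage 15 libraries H13 was also called higher in knockout at passage 5 (log2 0.13 ± 0.031, adjusted p = 0.000310), rising in wild type to passage 10 (log2 0.19 ± 0.032, adjusted p = 3.59e-07) and falling in the knockout to passage 10 (log2 -0.28 ± 0.032, adjusted p = 1.32e-14).

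Peg13, a paternal non-coding RNA in an intron of the vesicle-tethering gene Trappc9 on chromosome 15, had 3.67, 4.31 and 4.50 CPM in Mist1- organoids. It had 6.04, 7.06 and 5.90 CPM at passage 5, 10.7, 10.1 and 8.76 at passage 10 and 7.05, 8.37 and 8.44 at passage 15 in wild type. Knockout levels were 10.2, 10.1 and 11.3 CPM at passage 5, 9.50, 8.03 and 10.2 at passage 10 and 9.53, 9.33 and 10.1 at passage 15. Peg13 was higher in Mist1+ than in Mist1- organoids (log2 0.60 ± 0.13, adjusted p = 0.00114), rose in wild type to passage 10 (log2 0.64 ± 0.12, adjusted p = 0.00192) and was higher in knockout at passage 5 (log2 0.74 ± 0.12, adjusted p = 5.99e-05) but not by the test at passage 10 (log2 -0.084 ± 0.11, adjusted p = 0.615). The change to passage 10 differed between genotypes (interaction log2 -0.82 ± 0.16, adjusted p = 0.00305). Its rise in wild type to passage 15 (log2 0.33 ± 0.12, adjusted p = 0.0299) was log2 0.41 ± 0.18, adjusted p = 0.0625 with replicate 2 alone. Trappc9 was lower in knockout at passages 5 (log2 -0.26 ± 0.086, adjusted p = 0.0246) and 10 (log2 -0.28 ± 0.086, adjusted p = 0.0137). Both Trappc9 calls were lost with library totals alone, limma or no low-count filter, and when some single libraries were left out. Peg13 and Trappc9 pre-mRNA cannot be told apart by these counts.

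Plagl1 encodes ZAC1, a paternal zinc finger transcription factor that governs other imprinted growth genes (chromosome 10, 13060504 to 13131694, plus strand). It had 21.1, 21.2 and 21.2 CPM at passage 5, 29.6, 31.4 and 26.9 at passage 10 and 13.1, 32.7 and 30.6 at passage 15 in wild type. The knockout had 30.0, 25.7 and 30.2 CPM at passage 5, 19.4, 17.4 and 19.9 at passage 10 and 31.9, 30.4 and 33.5 at passage 15, with passage 10 below passages 5 and 15, and Mist1- organoids had 15.0, 16.4 and 15.4. Plagl1 was lower in knockout at passage 10 (log2 -0.63 ± 0.19, adjusted p = 0.0148). The change from passage 5 to 10 differed between genotypes (interaction log2 -1.06 ± 0.27, adjusted p = 0.0195). Both Plagl1 calls were lost with limma, and without replicate 2 of wild-type or of knockout passage 10. Both were kept without the wild-type passage 15 libraries (log2 -0.62 ± 0.077, adjusted p = 4.69e-13, and interaction log2 -1.05 ± 0.11, adjusted p = 8.98e-17). That fit also called Plagl1 rising in wild type to passage 10 (log2 0.46 ± 0.076, adjusted p = 1.96e-07) and falling in the knockout (log2 -0.59 ± 0.076, adjusted p = 1.41e-11). It was then higher in knockout at passage 5 (log2 0.43 ± 0.076, adjusted p = 2.45e-07). At passage 15 the difference was not called (log2 0.31 ± 0.19, adjusted p = 0.168), with 13.1 CPM in wild-type replicate 1 against 30.6 and 32.7 in the others.

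Ddc, the decarboxylase of dopamine and serotonin synthesis, neighbours Grb10, an insulin receptor adaptor, on chromosome 11. Ddc had 2.72, 3.00 and 2.90 CPM in Mist1- organoids and 5.22, 4.52 and 5.69 CPM at passage 5, 7.07, 6.13 and 4.59 at passage 10 and 7.19, 6.36 and 6.71 at passage 15 in wild type. Its knockout levels were 3.99, 4.35 and 3.86 CPM at passage 5, 3.02, 3.34 and 3.35 at passage 10 and 4.37, 4.52 and 4.43 at passage 15. It was higher in Mist1+ than Mist1- organoids (log2 0.84 ± 0.15, adjusted p = 0.000159) and lower in knockout at passages 10 (log2 -0.86 ± 0.15, adjusted p = 8.98e-05) and 15 (log2 -0.60 ± 0.14, adjusted p = 0.00132; with replicate 2 alone log2 -0.52 ± 0.22, adjusted p = 0.0580). The rise of Ddc in wild type to passage 15 (log2 0.39 ± 0.14, adjusted p = 0.0238) was log2 0.31 ± 0.22, adjusted p = 0.277 with replicate 2 alone. Grb10 held 5, 5 and 10 counts in Mist1- organoids, 4, 7 and 6 in knockout passage 10 and 0 to 3 in each of the other 15 libraries.

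Impact, an inhibitor of the stress kinase GCN2, fell in the knockout from 20.1, 21.9 and 17.6 CPM at passage 5 to 12.7, 13.7 and 15.5 at passage 15 (log2 -0.51 ± 0.13, adjusted p = 0.00877); passage 10 read 18.4, 20.2 and 18.9. Wild-type libraries had 17.2, 19.1 and 19.5 CPM at passage 5, 14.1, 16.4 and 16.2 at passage 10 and 13.1, 19.7 and 19.3 at passage 15. Impact was lower in knockout at passage 15 (log2 -0.32 ± 0.13, adjusted p = 0.0463). With replicate 2 alone it was log2 -0.50, and wild-type replicate 1, at 13.1 CPM, fell inside the knockout range. This call was lost without wild-type passage 15 replicate 2 or 3 or knockout passage 15 replicate 1 or 2. It was also lost with library totals alone, the FPKM filter, limma and only the groups compared. The fall in the knockout lost its call without passage 5 replicate 2 or passage 15 replicate 1. Gnas, the stimulatory G protein subunit, was higher in knockout at passage 15 (log2 0.27 ± 0.059, adjusted p = 0.000767) and fell in wild type to passage 15 (log2 -0.25 ± 0.059, adjusted p = 0.00140). Inpp5f, an inositol phosphatase gene with an imprinted isoform, was lower in Mist1+ than Mist1- organoids (log2 -0.38 ± 0.11, adjusted p = 0.0114). This call was lost without wild-type passage 5 replicate 3. Inpp5f rose in wild type to passage 15 (log2 0.29 ± 0.11, adjusted p = 0.0350), where its libraries read 25.4, 39.8 and 36.6 CPM. With replicate 2 alone, the highest of these, the value was log2 0.52. The rise lost its call with only the groups compared, and without wild-type passage 5 replicate 1 or 3 or passage 15 replicate 2 or 3. Igf2r fell in wild type to passage 15 (log2 -0.47 ± 0.15, adjusted p = 0.0134), where its libraries read 186, 407 and 283 CPM against 402, 413 and 400.4 at passage 5. With replicate 2 alone the Igf2r difference turned to log2 0.014 ± 0.032, adjusted p = 0.768, so that fall rested on the other two libraries. The knockout differences of Igf2r at passages 5 (log2 -0.31 ± 0.15, adjusted p = 0.138) and 10 (log2 -0.21 ± 0.15, adjusted p = 0.297) were not called in the 21-library fit. Without the wild-type passage 15 libraries Igf2r was lower in knockout at passages 5 (log2 -0.31 ± 0.023, adjusted p = 2.71e-28) and 10 (log2 -0.21 ± 0.023, adjusted p = 3.58e-16) and fell in the knockout to passage 15 (log2 -0.17 ± 0.023, adjusted p = 6.51e-11).

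The share of the tested members that changed ran from 6.45% to 58.1% over 10 comparisons and was mostly near the share of all tested genes; exceptions were 12.9% beside 4.88% in wild type from passage 5 to 10 and 12.9% beside 5.93% for the interaction at passage 10, with 4 members called in each. No test of the list was made, and the counts are not a result about imprinted genes as a class. Of the 31 tested, 11 changed between Mist1+ and Mist1- organoids (6 rose and 5 fell, beside 35% of all genes changed). Besides those described, Slc22a18 (log2 0.42), Osbpl5 (0.42) and Blcap (0.44) were higher and Snrpn (-0.60), Peg3 (-0.54) and Gnas (-0.16) lower in Mist1+. The Slc22a18 call was lost when any 1 of the 6 libraries was left out. Those of Peg3 and Gnas were lost when some single libraries were left out. Knockout against wild type changed 9 at passage 5 (2 rose, 7 fell; 30.1% of all genes), 12 at passage 10 (4 rose, 8 fell; 34.4%) and 18 at passage 15 (6 rose, 12 fell; 48.9%). Within wild type 4 changed from passage 5 to 10 (2 rose, 2 fell; 4.88% of all genes) and 16 from passage 5 to 15 (8 rose, 8 fell; 51.3%). Within the knockout 2 changed to passage 10 (Snrpn rose, Cd81 fell; 7.61% of all genes) and 4 to passage 15 (Peg3 and Snrpn rose, Impact and Cd81 fell; 13%). The passage change differed between genotypes for 4 members at passage 10 (5.93% of all genes) and 11 at passage 15 (38.3%). The median log2 fold change over the 31 lay between -0.14 and 0.08 in these 10 comparisons, beside -0.021 to 0.0071 over all genes tested. Comparisons share groups, so their counts are not independent of each other.

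With the 3 wild-type passage 15 libraries left out of the fit, 29 members were tested and more were called in each of the 7 comparisons left. The members changed were 18 between Mist1+ and Mist1- (10 rose, 8 fell; 52.6% of all genes). Knockout against wild type gave 19 at passage 5 (7 rose, 12 fell; 47.4% of all genes) and 14 at passage 10 (5 rose, 9 fell; 52%). From passage 5 to 10, 13 changed in wild type (5 rose, 8 fell; 18.5%) and 8 in the knockout (5 rose, 3 fell; 22.2%), and from 5 to 15, 10 changed in the knockout (5 rose, 5 fell; 30%). The interaction at passage 10 held 10 (7 rose, 3 fell; 20.1%). Peg3 then also rose in the knockout to passage 10 and Snrpn also fell in wild type to passage 10. Scaling by library totals alone moved some splits. Knockout against wild type went from 2 rose and 7 fell to 4 and 5 at passage 5. At passage 10 it went from 4 and 8 to 6 and 7. Wild type passage 15 against 5 went from 8 and 8 to 10 and 7. The interaction at passage 15 went from 7 and 4 to 5 and 5, and Mist1+ against Mist1- from 6 and 5 to 5 and 5. None of the 91 called member values changed sign with it.

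**Figure D4:**
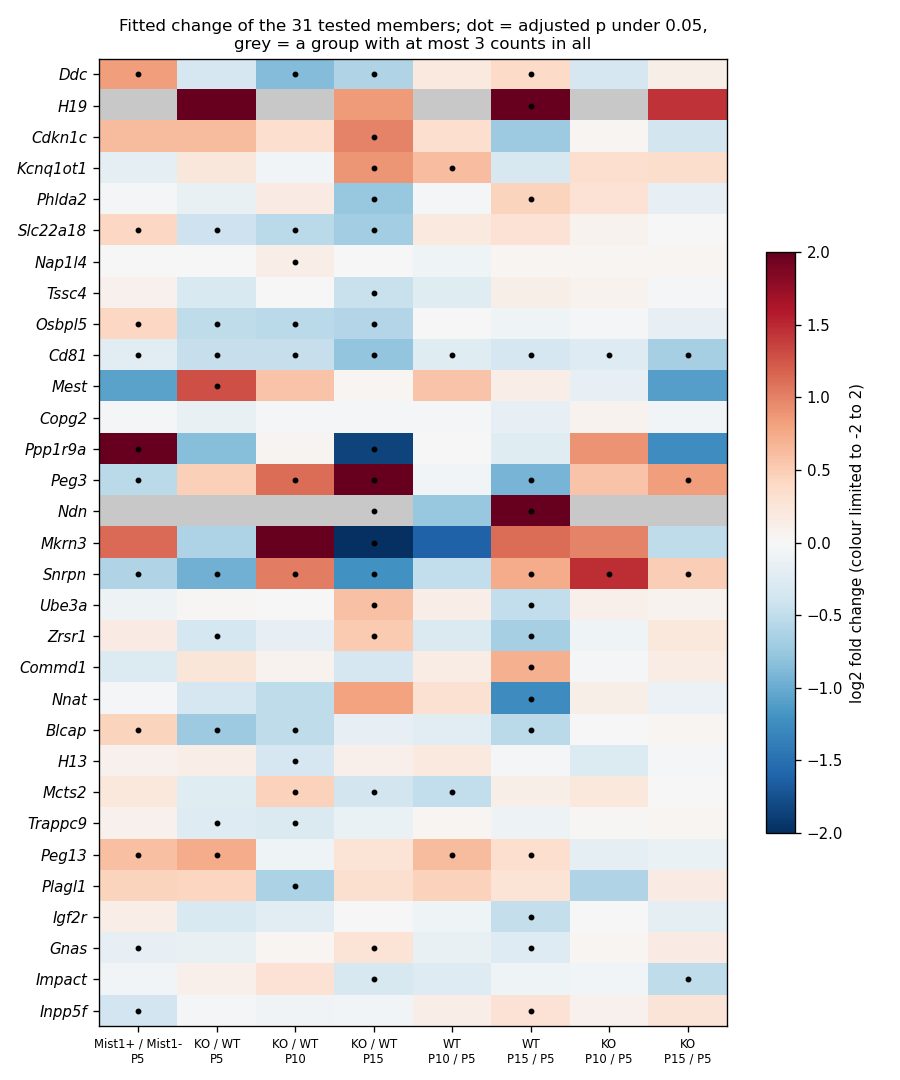
Fitted log2 fold change (colour, limited to -2 to 2) of the 31 tested members, ordered by domain, in 8 pairwise comparisons; a dot marks an adjusted p under 0.05, and grey marks a comparison in which a group had at most 3 counts. Cd81 is dotted in every column, Snrpn changes colour between columns, and the columns that use wild-type passage 15 hold the most dots.

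Proteins that set, keep or read imprints formed a list of 28 genes, of which 23 were tested. Between passages 5 and 10 none changed in wild type and only Hells, a chromatin remodeller needed for DNA methylation, rose in the knockout (log2 0.52 ± 0.11, adjusted p = 0.00399); from 5 to 15 none changed in the knockout. Knockout against wild type, 6 rose and 2 fell at passage 5 (34.8% of the list, 30.1% of all genes), 7 rose and 3 fell at passage 10 (43.5%, 34.4%), and 10 rose and 6 fell at passage 15 (69.6%, 48.9%). Tdg, the glycosylase of active demethylation, was lower in knockout at passages 5 (log2 -0.84 ± 0.11, adjusted p = 3.5e-06), 10 (log2 -0.81 ± 0.11, adjusted p = 4.86e-06) and 15 (log2 -1.77 ± 0.11, adjusted p = 2.66e-11). Zfp57, which protects imprints in the embryo, was lower at passages 5 (log2 -0.46 ± 0.13, adjusted p = 0.00797), 10 (log2 -0.86 ± 0.13, adjusted p = 2.45e-05) and 15 (log2 -0.40 ± 0.12, adjusted p = 0.0109; with replicate 2 alone log2 -0.32 ± 0.18, adjusted p = 0.167). Uhrf1, the partner of the maintenance methyltransferase, was higher in knockout at passages 5 (log2 0.33 ± 0.057, adjusted p = 0.000144) and 10 (log2 0.31 ± 0.057, adjusted p = 0.000240) and lower at passage 15 (log2 -0.25 ± 0.056, adjusted p = 0.00136; with replicate 2 alone log2 -0.37). Uhrf1 rose in wild type to passage 15 (log2 0.67 ± 0.057, adjusted p = 6.31e-09), where 7 genes of the list rose and 6 fell (56.5%, 51.3% of all genes). The median of the list was 0.07, 0.09 and 0.19 in these 3 knockout comparisons, beside medians of all genes between -0.011 and -0.0041. Where the group that stood apart is touched these counts moved. Without the 3 wild-type passage 15 libraries, 5 of the 23 rose and 1 fell in wild type to passage 10 (18.5% of all genes). In knockout against wild type, 10 rose and 6 fell at passage 5 (47.4%) and 10 rose and 8 fell at passage 10 (52%). In the knockout 6 rose and 2 fell to passage 10 (22.2% of all genes) and 7 rose and 3 fell to passage 15 (30%). With replicate 2 of wild-type passage 15 alone, the median of the list was 0.23 in wild type to passage 15, against 0.043 with all 3 libraries. In knockout at passage 15 the median was then -0.053, against 0.19. With that library alone the passage 15 difference of Tdg was log2 -1.94 and the wild-type change of Uhrf1 log2 0.80.

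A further 40 imprinted or domain-flanking genes outside the member list held 18 tested ones. In wild type to passage 15, 1 of these rose and 10 fell (61.1% of the 18, 51.3% of all genes). Their median was -0.39 (all genes, -0.021), and -0.16 with replicate 2 alone. Kcnq1, the potassium channel gene that hosts Kcnq1ot1, fell there (log2 -0.70 ± 0.072, adjusted p = 9.36e-08) and to passage 10 (log2 -0.54 ± 0.072, adjusted p = 4.09e-05), and was lower in knockout at passages 5 (log2 -0.77 ± 0.072, adjusted p = 4.58e-08), 10 (log2 -0.56 ± 0.073, adjusted p = 4.4e-06) and 15 (log2 -0.21 ± 0.073, adjusted p = 0.0245; with replicate 2 alone log2 -0.071 ± 0.065, adjusted p = 0.445). Airn, the antisense RNA that silences Igf2r on the paternal copy, fell in wild type to passage 15 (log2 -1.44 ± 0.18, adjusted p = 1.82e-06; with replicate 2 alone log2 -0.88) and was lower in knockout at passages 5 (log2 -1.15 ± 0.18, adjusted p = 3.16e-05) and 10 (log2 -0.89 ± 0.18, adjusted p = 0.000549). Gatm, the first enzyme of creatine synthesis, was lower in Mist1+ than in Mist1- organoids (log2 -0.99 ± 0.10, adjusted p = 5.39e-08) and higher in knockout at passages 5 (log2 0.68 ± 0.10, adjusted p = 1.61e-05), 10 (log2 1.00 ± 0.10, adjusted p = 6.88e-08) and 15 (log2 0.68 ± 0.10, adjusted p = 1.67e-05). Of the 18, 2 rose and 8 fell in knockout at passage 5 (55.6%, against 30.1% of all genes), 3 rose and 7 fell at passage 10 (55.6%, 34.4%), and 4 rose and 5 fell at passage 15 (50.0%, 48.9%). With replicate 2 of wild-type passage 15 alone, the median of the 18 in knockout at passage 15 was log2 -0.11. No test of this list was made.

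The IGF axis, through which Igf2, Igf2r, H19 and Grb10 act, held 16 listed genes besides those members, 9 of them tested. The binding protein gene Igfbp3 was higher in Mist1+ than in Mist1- organoids (log2 0.90 ± 0.064, adjusted p = 3.27e-10), fell in wild type to passage 10 (log2 -0.60 ± 0.063, adjusted p = 2.23e-06) and was lower in knockout at passages 5 (log2 -0.40 ± 0.063, adjusted p = 3.82e-05) and 15 (log2 -1.62 ± 0.066, adjusted p = 3.2e-14) and higher at passage 10 (log2 0.25 ± 0.063, adjusted p = 0.00422). Igf2bp1, an RNA-binding protein that binds Igf2 transcripts, rose in wild type to passage 15 (log2 2.14 ± 0.22, adjusted p = 6.98e-08) and was lower in knockout there (log2 -3.97 ± 0.26, adjusted p = 8e-11) and at passage 5 (log2 -2.11 ± 0.32, adjusted p = 2.81e-05). Igf1r, the signalling receptor, was lower in knockout at passages 5 (log2 -0.69 ± 0.12, adjusted p = 8.39e-05) and 15 (log2 -1.02 ± 0.12, adjusted p = 7.34e-07). In knockout against wild type none of the 9 rose and 5 fell at passage 5 (55.6%, against 30.1% of all genes), 1 rose and 1 fell at passage 10 (22.2%, 34.4%), and 1 rose and 4 fell at passage 15 (55.6%, 48.9%). Without the wild-type passage 15 libraries 2 rose and 2 fell at passage 10 (52% of all genes).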

How the data were processed

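RNA-seq libraries of 21 mouse gastric organoid samples were analysed, and 6 Mist1+ samples from mice on different diets are not analysed here. The authors deposited raw read counts and FPKM per gene. The submitters' processing notes name HISAT2 2.2.1, HTSeq 0.6.1, cutadapt 1.9.1 and the build GRCm38.p5. Whether counting used strand is not given in the sources used here. Dividing each count by its gene's length and by the total of the library gave the authors' FPKM to within 0.006 for 100% of values. The table's coordinates match GENCODE M21 (GRCm38) for 1435 of 52073 shared gene identifiers, so positions were taken from GENCODE M21 by identifier. Promoters are RefSeq's on GRCm38.p6.

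The main model used edgeR 4.0.16 under R 4.3.3, with TMM scaling, filterByExpr (minimum count 10, minimum total 15, 15115 genes with 99.9% of counts kept), a group-means design over all 21 libraries and the robust quasi-likelihood test. P-values were adjusted by Benjamini-Hochberg over all 15115 genes. Libraries held 13805585 to 19608956 counts; 95% intervals and limits for 0 counts (3 counts) cover counting error only. Values in every library are given for members that switch and for up to 8 called members with the largest change in each comparison; of the other lists, members that switch and up to 4 with the smallest adjusted p could be named, and some of these are printed. The members and lists were chosen with earlier results of these data known. Alternatives were median ratio scaling, other filters, DESeq2 1.42.0, limma 3.58.1 on log2(FPKM + 1) and log2(FPKM + 0.1), fewer groups, a replicate block and each library left out; after the data were seen, library totals alone, wild-type passage 15 as its replicate 2 only and a looser switch rule were added. The code was tested on simulated data.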

Additional observations from a re-analysis of the deposited data

Results flagged for a closer look

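The change with passage differed between genotypes, by the interaction term of edgeR's fit, for 4 members from passage 5 to 10 and 11 from passage 5 to 15. The values are log2 changes of the knockout minus those of wild type. From passage 5 to 10 they were 1.98 for Snrpn and 0.71 for Mcts2, where the knockout change was the higher, and -1.06 for Plagl1 and -0.82 for Peg13, where it was the lower.

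From passage 5 to 15 the knockout change was the higher for Peg3 (1.76), Nnat (1.14), Zrsr1 (0.87), Kcnq1ot1 (0.66), Blcap (0.57), Ube3a (0.56) and Gnas (0.42). It was the lower for Phlda2 (-0.62), Commd1 (-0.57), Peg13 (-0.46) and Cd81 (-0.33). These 11 use wild-type passage 15. With replicate 2 alone for that group, Nnat (0.72), Kcnq1ot1 (0.40), Phlda2 (-0.36) and Commd1 (-0.12) gave smaller values and lost their calls. Ube3a (0.16) and Cd81 (-0.13) also gave smaller values. The group is then 1 library, assumed to vary like the others, so these values support no call. Nnat, Phlda2, Commd1 and Peg13 also lost their calls when some single libraries were left out. Peg13 and Nnat lost them with no low-count filter too. Kcnq1ot1 lost its call with limma, and Ube3a with limma, library totals alone or only the groups compared.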

How the results depend on the processing

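Of 1575 alternatives of the 91 called member values, 1371 kept direction and call, 202 kept direction only and 2 reversed. Both reversals were with wild-type passage 15 as its replicate 2 only, 1 library assumed to vary like the other groups: Tssc4 in knockout against wild type at passage 15 (0.026) and Igf2r in wild type passage 15 against 5 (0.014). Members that switch over passages were 1 with on at 5 counts (0.501% of all genes). They were 2 with off at up to 10 counts (0.513%) and 2 with on in at least 2 of 3 libraries (0.314%). Between any groups they were 5 (1.02%), 2 (1.01%) and 4 (0.651%) in that order. Without the wild-type passage 15 libraries, with its replicate 2 only, and with only the groups compared, members called were 18, 17 and 18 for Mist1+ against Mist1-, 19, 20 and 19 for knockout against wild type at passage 5, 13, 13 and 13 for wild type passage 10 against 5, 8, 9 and 8 for knockout passage 10 against 5, 10, 11 and 11 for knockout passage 15 against 5, and 10, 10 and 10 for the interaction at passage 10. The share of all genes called rose too. In the order of these comparisons it was 35%, 30.1%, 4.88%, 7.61%, 13% and 5.93% in the 21-library fit. It was 52.6%, 47.4%, 18.5%, 22.2%, 30% and 20.1% without the wild-type passage 15 libraries. With only the groups compared it was 55.4%, 50.7%, 20.5%, 21.9%, 32.9% and 20.3%. Only the groups compared gave 6 for wild type passage 15 against 5 (26.4%) and 7 for the interaction at passage 15 (29.5%). With no low-count filter 16 members were called for knockout against wild type at passage 5 (14.7% of all genes). For knockout passage 10 against 5 it gave 6 (3.64%), where DESeq2 called 4 (8.9%). The cause of these shifts was not tested.

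Leaving out 1 library at a time gave 9 to 10 members for Mist1+ against Mist1- (29.1% to 29.6% of all genes). Knockout against wild type gave 7 to 8 at passage 5 (24.4% to 24.8%) and 10 to 12 at passage 10 (28.0% to 28.5%). At passage 15 it gave 18 to 25 (41% to 59%). Within wild type 2 to 3 changed to passage 10 (3.24% to 3.42%) and 13 to 19 to passage 15 (44.1% to 60%). Within the knockout 1 to 3 changed to passage 10 (5.3% to 5.7%) and 3 to 4 to passage 15 (9.72% to 9.84%). The interactions held 3 to 4 at passage 10 (4.58% to 4.80%) and 7 to 13 at passage 15 (33.0% to 51.5%). The lowest of the last was without knockout passage 15 replicate 1, and the 1 for knockout passage 10 without its replicate 3. Of the 91 called member values, 33 lost their call in at least 1 of these fits. Same-numbered libraries did not deviate together (63 pairs, correlation -0.0398 to 0.173, median -0.000597), and 9 of 21 libraries correlated best with their own number. With the replicate number as a block, 11 members were called for Mist1+ against Mist1- (34.7% of all genes). Knockout against wild type gave 10 (29.8%), 13 (34.1%) and 18 (48.8%) at passages 5, 10 and 15. To passages 10 and 15, wild type gave 4 (4.67%) and 17 (51%), and the knockout 3 (7.29%) and 4 (12.5%). The interactions held 4 (5.74%) and 10 (38.1%). Depth limits the members under 10 counts, for which a fold change rests on few reads.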
